A study of Mus musculus with 12 samples.

Results

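Cholangiocytes are the epithelial cells that line the bile ducts of the liver. In the mouse snRNAseq data they were 1 of the 2 clusters to which the deposited nucleus table gives the name biliary epithelial cells. The annotation held 285 of 53467 nuclei, and its 2 cluster numbers split them. The smaller cluster, described here, held 63 Liver nuclei, 41 nuclei after isolation and 23 after culture, and the other biliary cluster held the remaining 158. The 24 samples came from 8 mice. Each mouse gave liver tissue (Liver, L), cells after collagenase digestion of the liver (Cell Suspension, CS) and cells seeded on collagen and cultured for 24 hours (Primary Hepatocytes, PH). Per the paper, PH cells were kept in medium with dexamethasone and insulin and were detached with trypsin before freezing. PH thus differs from L and CS by these steps as well as by time in culture. All mice were untreated wild-type males of 10 to 12 weeks, of the strain C57BL/6NTac in the paper and C57BL6J in the labels. CS and PH were prepared to obtain hepatocytes, so cholangiocytes were not the target cell of either preparation.

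As background, cholangiocytes modify bile by secreting and absorbing fluid, and most carry a primary cilium that reaches into the duct lumen. Pkhd1, Bicc1, Sox9, Epcam and Krt19 are commonly used to mark them. SOX9 and Notch signalling take part in bile duct formation, and loss of Pkhd1 or of other cilium genes leads to duct malformation and cysts.

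The evidence was thin in UMIs and in sample labels. The Liver nuclei of the cluster summed to 176053 UMIs, those of Cell Suspension to 98111 and those of Primary Hepatocytes to 76443, against totals per sample, over all cell types, of 2709659 to 32104065 UMIs. Single Liver samples held 4 to 20 nuclei of the cluster. Samples were told apart by hashtag antibodies within 6 pools of 4 samples. The assigned hashtag had the most raw hashtag UMIs in 24 of 63 L, 30 of 41 CS and 14 of 23 PH nuclei of the cluster. Per the paper, nuclei were assigned by normalized hashtag counts, so a highest assigned hashtag after scaling is largely given and is no check of the labels. After division by the background of each hashtag, the assigned one was the highest in every nucleus of the cluster. Its ratio to the next hashtag had a median of 1.59 in L, 1.37 in CS and 1.36 in PH. In hepatocyte nuclei the same ratio had a median of 3.23 in L, 2.44 in CS and 1.41 in the 73 such nuclei of PH. In L nuclei of the other biliary cluster it was 1.67. No barcode of the cluster occurred in a second pool, whereas 337 barcodes of the whole table did.

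RNA of Pkhd1 and Bicc1 went with the name in most nuclei, and that of the other 3 markers in few. Pkhd1, which encodes fibrocystin of the cilium, had a UMI in 120 nuclei of the cluster (94.5%, exact Clopper-Pearson 95% interval 89.0% to 97.8%). Bicc1, an RNA-binding protein of cystic disease, had one in 121 nuclei, Sox9 in 27, Epcam in 24 and Krt19 in 20. These counts pool L, CS and PH. In L alone, Sox9 was seen in 13, Epcam in 6 and Krt19 in 3 of 63 nuclei. In PH it was 8, 11 and 10 of 23. At least 3 of the 5 markers were seen in 50 nuclei and none in 1. The median nucleus of the cluster had 2428 UMIs. Among Group L hepatocytes, with a median of 7740 UMIs, Pkhd1 had a UMI in 57.7% of nuclei and Bicc1 in 3.94%. When each nucleus was thinned to 1000 UMIs (9 cholangiocyte and 498 hepatocyte nuclei were too shallow), Pkhd1 was seen in 90.7% of cholangiocyte and 13.8% of hepatocyte nuclei. Of the other biliary cluster, 144 nuclei could be thinned, and Pkhd1 was seen in 2.08% and Bicc1 in 88.9% of them. Bicc1 thus marked both biliary clusters, and Pkhd1 differed between them. Krt19 did not set them apart. It had a UMI in 15.7% of nuclei of the cluster and in 24 nuclei (15.2%) of the other, and in Liver it stood at 22.7 CPM (UMIs per 1000000, 4 UMIs) here and at 72.3 CPM (38 UMIs) there.

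Levels are given as CPM, the UMIs of a gene divided by all UMIs of the summed nuclei and scaled to 1000000. In the 8 Liver samples, Pkhd1 ranged from 7768 to 10638 CPM (median 9200) in the cluster, from 120 to 185 CPM in hepatocytes and from 0 to 113 CPM in the other biliary cluster. The groups did not overlap. Because the clusters were made from these same genes, this and all other differences between clusters are descriptions without a test. Pkhd1 covers 560 kb of chromosome 1 (20057779 to 20618064, minus strand, GRCm38).

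**Figure D1:**
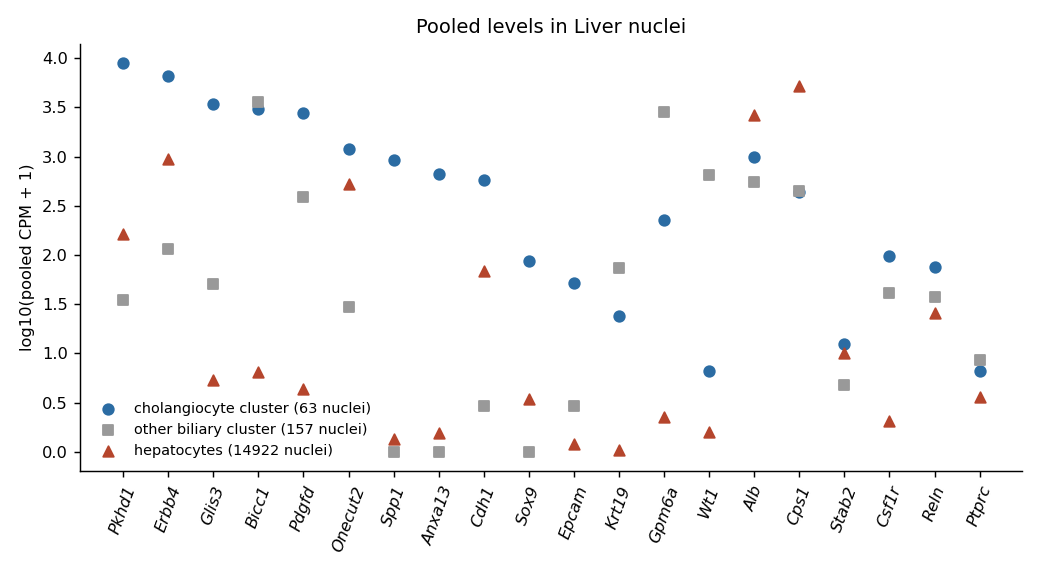
Pooled levels of marker and leading genes in Liver nuclei, as log10 of CPM plus 1, for the cholangiocyte cluster (circles), the other biliary cluster (squares) and hepatocytes (triangles). Pkhd1, Spp1 and Anxa13 are highest in the cholangiocyte cluster, Gpm6a and Wt1 in the other biliary cluster, and Alb and Cps1 in hepatocytes.

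The cluster was a small share of every sample type and was lowest in PH, where the share depends on the annotation. In PH it held 23 nuclei, 15 of them with UMIs of at least 3 of the 5 markers. A further 137 nuclei with as many markers, all in PH, were named cultured cells, 0.718% of the 19070 nuclei of that name, against 0.136% of nuclei named hepatocytes, without matching for depth. Whether these 137 are cholangiocytes was not tested. The share of all nuclei ranged from 0.128% to 0.630% in L (median 0.261%), from 0.0935% to 0.572% in CS (median 0.244%) and from 0% to 0.299% in PH (median 0.117%). The 3 ranges overlapped. The means were 0.326% ± 0.185 (SD, n = 8 mice), 0.263% ± 0.143 and 0.121% ± 0.0963. The difference of CS minus L was -0.0634 percentage points, lower in 5 of 8 mice (exact permutation of mice between types, 2-sided, p = 0.444). PH minus L was -0.205 points, lower in 7 of 8 mice (exact p = 0.00824, adjusted p = 0.0247), and PH minus CS was -0.142 points, lower in 6 of 8 mice (exact p = 0.0260, adjusted p = 0.0389). These tests do not pair the samples of a mouse. With the mouse as a pair, the exact sign-flip test gave an adjusted p of 0.0469 for PH minus L and 0.0469 for PH minus CS. The unpaired adjusted p of PH against L rose to between 0.0516 and 0.0927 without mouse 2, 4, 7 or 8, and that of PH against CS to between 0.0516 and 0.123 without mouse 1, 2, 4, 6, 7 or 8. In PH of mouse 7, 0 of 2241 nuclei were in the cluster, which allows a share of up to 0.134%. Within pool 2, the share was 0.232% in L, 0.261% and 0.572% in CS and 0.0481% in PH. Within pool 5 it was 0.289% in L, 0.146% in CS and 0.135% and 0.179% in PH. Pools 1 and 6 held no PH, with 0.225%, 0.630% and 0.306% in L against 0.227% in CS and 0.128%, 0.596% and 0.204% against 0.282%. Pools 3 and 4 held no L. There, CS had 0.308% against 0.0385%, 0.299% and 0.171% in PH, and 0.214% and 0.0935% against 0.0996% and 0%. PH was thus the lower type in pool 2, and the ranges of CS and PH overlapped or lay close together in pools 3, 4 and 5.

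A share among non-hepatocyte nuclei could not be compared with PH. Most PH nuclei carry the deposited name cultured cells, which gives no cell type, so leaving them out can drop non-hepatocytes from PH that L and CS keep. PH samples held only 10 to 40 nuclei named neither hepatocytes nor cultured cells. Only 10 of 63 L, 1 of 41 CS and 3 of 23 PH nuclei of the cluster had a raw hashtag count at least 2 times the next. With nuclei that passed this limit, PH minus L was -0.0298 points (exact adjusted p = 0.733). So few nuclei cannot show whether the share changed. The other biliary cluster had a much larger fall, from 0.746% ± 0.491 in L to 0.0142% ± 0.0402 in CS and 0% in PH, lower in 8 of 8 mice in both comparisons. The exact permutation test, which does not pair samples of a mouse, gave p = 1.55e-04 (adjusted p = 2.33e-04), the smallest p it can give before adjustment. Whether the change in share differed between both biliary clusters was not tested.

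**Figure D2:**
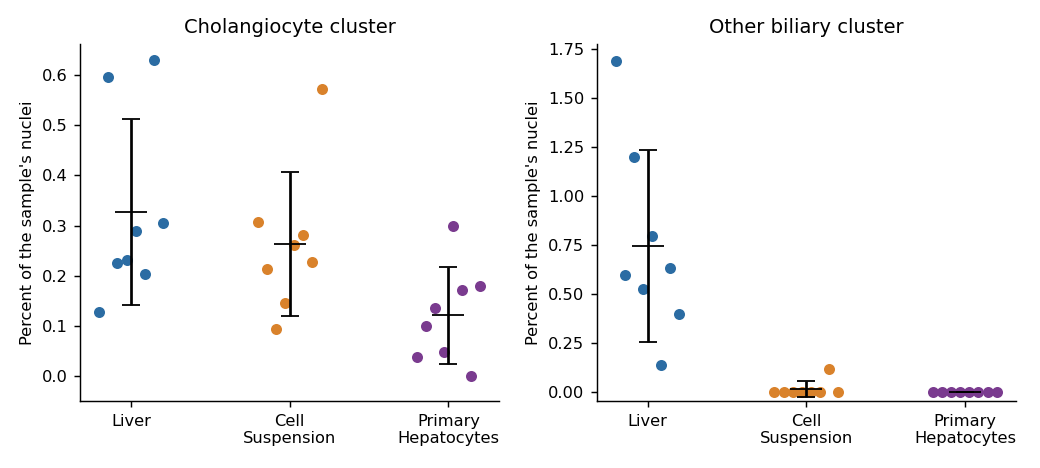
Share of each sample's nuclei (percent) in the cholangiocyte cluster (left) and in the other biliary cluster (right), by sample type. Points are samples, and bars give the mean and SD over 8 mice. Cholangiocytes overlap between the sample types, whereas 7 of 8 CS samples and all 8 PH samples have none of the other biliary cluster.

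Cholangiocyte nuclei of Liver yielded fewer UMIs than hepatocyte nuclei of the same sample. Their median UMI count per sample ranged from 1821 to 4503, and that of hepatocytes from 4510 to 14002. It was lower in the cluster in 8 of 8 mice, with a ratio of 0.335 (log2 -1.58, SD 0.515, exact paired permutation test, p = 0.00781, the smallest this test can give, adjusted p = 0.0312). Against the other biliary cluster the ratio was 0.987 (exact paired p = 0.867). The unspliced share of UMIs was 73.8% ± 3.98 (SD, n = 8) in cholangiocytes, 74.2% ± 1.68 in hepatocytes and 75.0% ± 2.57 in the other biliary cluster. At 1000 UMIs, 722 ± 6.21 genes were detected per cholangiocyte nucleus and 720 ± 14.6 per hepatocyte nucleus. Neither of these measures passed the test (exact paired adjusted p of 0.271 to 0.821). The assigned hashtag held 35.1% ± 14.2 of the hashtag UMIs in cholangiocytes and 53.9% ± 11.8 in hepatocytes, lower in 8 of 8 mice (difference -18.9 points, exact paired p = 0.00781, adjusted p = 0.0312). In the other biliary cluster it held 36.9% ± 15.7 (difference -1.84 points, exact paired adjusted p = 0.281), so a low share was not particular to cholangiocytes.

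**Figure D3:**
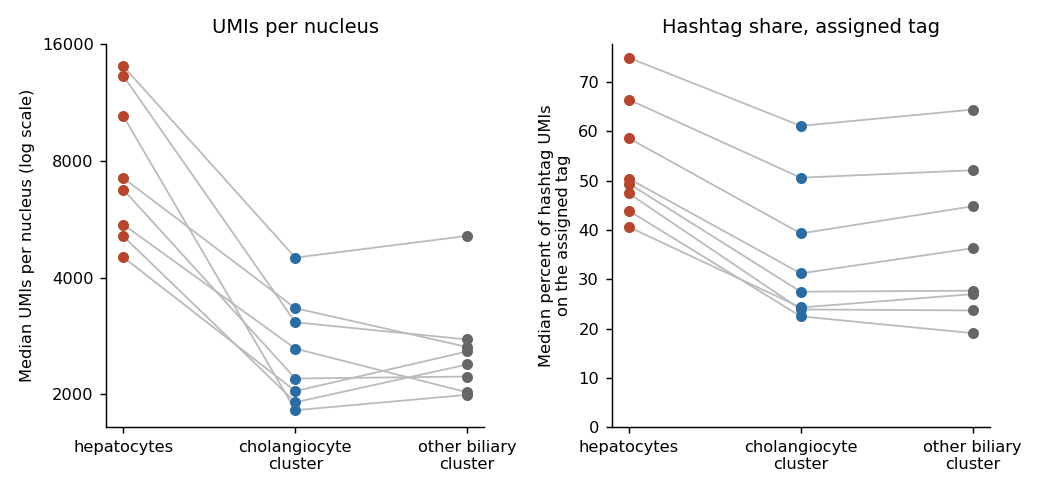
Median UMIs per nucleus on a log scale (left) and median percent of hashtag UMIs on the assigned hashtag (right) in the 8 Liver samples. Lines join the 3 cell groups of the same sample. Hepatocytes are above the cholangiocyte cluster in 8 of 8 samples in both panels.

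Of the genes that stood highest over hepatocytes in Liver by pooled CPM, Spp1, which encodes the matrix protein osteopontin, led and was 2675-fold higher (914 against 0.342 CPM). Anxa13, a membrane-binding annexin, was 1171-fold higher, Pdgfd, a platelet-derived growth factor, 838-fold and Glis3, a zinc finger factor tied to cystic disease, 782-fold. Angpt1, the ligand of the TIE2 receptor, was 472-fold higher. Each of these genes was above the hepatocyte level of its own sample in 8 of 8 mice. As a background, 28.2% of 8322 genes above a floor of 3 UMIs in either group were at least 2-fold higher in cholangiocytes and 19.7% at least 2-fold lower. The median log2 ratio over all of them was 0.226.

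Several genes stood high over the other biliary cluster in Liver. Cdh1, E-cadherin, had 574 CPM in cholangiocytes and 1.9 CPM (1 UMI) in the other cluster. Pkhd1 was 258-fold higher, Kcnma1, a potassium channel, 134-fold, and Spp1 and Anxa13, with 0 UMIs in the other cluster, at least 160-fold and at least 115-fold higher by a floor of 3 UMIs over the group. Dcdc2a, a doublecortin-domain protein of cilia, had 943 CPM against 5.71 CPM (3 UMIs). Of 8826 genes, 21.8% were at least 2-fold higher and 18.6% at least 2-fold lower in cholangiocytes than in the other cluster.

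Cilium and cyst genes were high as a group. Of 18 with a ratio, 15 were at least 2-fold above hepatocytes and 1 was below, with a median log2 ratio of 1.69. Over all genes, the shares were 28.2% and 19.7%. Kif3a, a motor subunit of ciliary transport, was 17.9-fold, Cys1, the cilium protein cystin, 9.90-fold, Pkd2, the polycystin channel, 4.54-fold and Invs, inversin, 2.39-fold above hepatocytes. Sec63, part of the translocon and a polycystic liver disease gene, was lower, at 0.449-fold. Against the other biliary cluster, 3 of 18 were at least 2-fold higher, a share near the 21.8% of all genes. The other 15 lay within 2-fold between both biliary clusters.

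Transcription factors were compared with both comparators. Over hepatocytes, 8 of 17 were at least 2-fold higher and 3 lower, against 28.2% and 19.7% of all genes. The count of lower factors was thus near the background and is no result about them as a group. Those higher included Sox4 (239-fold), Ehf (580-fold) and Grhl2 (170-fold), all epithelial or progenitor factors. The 3 lower were Hnf4a (0.217-fold) and Nr1h4 (0.218-fold), which set hepatocyte metabolism, and Cebpa (0.352-fold). Against the other biliary cluster, 12 of 14 were at least 2-fold higher and 0 lower, where 21.8% and 18.6% of all genes were. Onecut2 (1204 CPM), Onecut1 (585 CPM) and Prox1 (818 CPM), factors that liver epithelium shares, had 28.5, 36.1 and 24.7 CPM in the other cluster. Tead1 was an exception, with 636 CPM in cholangiocytes and 974 CPM in the other cluster.

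Of the Notch pathway, 4 of 7 genes were at least 2-fold above hepatocytes and 0 below, against 28.2% and 19.7% of all genes. Jag1, a ligand, was 10.7-fold higher and Notch2, a receptor, 2.18-fold. Maml2, a coactivator, was 230-fold higher, and Hes1, a target gene, was 3.72-fold higher from 8 UMIs. No UMI of 9 genes, among them Dll4, Notch1, Notch3, Hey1 and Heyl, was seen in the 176053 UMIs of the Liver nuclei, and a count of 0 allows up to 3 UMIs.

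Transport genes were mixed. Of 20, 12 were at least 2-fold above hepatocytes and 4 below, against 28.2% and 19.7% of all genes. The count below was thus near the background and is no result about these genes as a group. Ano1, a calcium-gated chloride channel, was 186-fold higher, Slc5a1, the sodium-glucose transporter SGLT1, 216-fold, and Abcb1a, a drug efflux pump, 48.0-fold. Cftr, the chloride channel of bile secretion, had only 6 UMIs (34.1 CPM) and was 32.6-fold higher. It was not highest here, with 87.5 CPM (46 UMIs) in the other biliary cluster. Abcb11 (0.0704-fold) and Slc10a1 (0.130-fold), the hepatocyte carriers of bile salts, were lower. Slc4a4, a sodium bicarbonate cotransporter, was lower too (0.448-fold) and stood at 1931 CPM in the other biliary cluster against 210 CPM in cholangiocytes. The water channels Aqp1, Aqp4 and Aqp8 had no UMI in Liver nuclei of the cluster.

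Junction and keratin genes were 13 of 19 at least 2-fold above hepatocytes and 1 below. Over all genes, 28.2% were above and 19.7% below, which also applies to the lists that follow here. Dsg2, a desmosomal cadherin, had 1000 CPM against 116 CPM, and Prom1, prominin 1, had 193 against 1.10 CPM. Cdh2, N-cadherin, was the lower one, at 0.0912-fold. Keratin RNA was scarce in tissue. Krt8 had 62.5 CPM, Krt18 34.1 CPM and Krt19 22.7 CPM, from 11, 6 and 4 UMIs. Of the basement membrane and integrin genes, 14 of 18 were higher, among them Itgb8 (659-fold) and the collagen receptor Ddr1 (230-fold). Among receptors and growth factors, 14 of 24 were higher and 4 lower, the latter a count near the background. Erbb4, a neuregulin receptor, had 3832 to 10898 CPM over the 8 Liver samples (median 5261) and 451 to 1231 CPM in hepatocytes. Igf1r was 223-fold higher, and Egfr 0.0667-fold, with 665 against 9966 CPM.

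After isolation, cholangiocyte nuclei gained early response and keratin RNA. Samples with at least 3 nuclei entered, 8 of L and 6 of CS (mice 1, 2, 4, 5, 6 and 8). edgeR called 63 of 4902 genes higher in CS (1.29%) and 8 lower (0.163%), with 414 at an unadjusted p under 0.05. Over all genes tested, the log2 fold changes had a median of -0.271 with TMM and of -0.108 with RLE size factors, so changes are to be read against these. With the mouse as a block, 20 genes were higher and 3 lower, all 23 among the first 71. With the pool as a term, 18 were higher and 0 lower.

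Early response genes encode transcription factors and regulators that stimulated cells transcribe within minutes. Of the 22 listed, 12 had enough UMIs to be tested and rose. Several of these passed the minimum of 10 UMIs only through CS, where they were high, so this count is partly fixed by the filter. With no filter, 13 of 21 were called. Atf3, a stress-induced factor of the ATF family, had 0 UMIs in all 8 L samples. In CS it had 2736, 632, 2956, 2498, 4139 and 1033 CPM (mice 1, 2, 4, 5, 6 and 8). No CS sample reached down to the L level, and the pooled level was at least 143-fold higher (edgeR adjusted p = 2.92e-35). Fosb, an AP-1 subunit, had 0 UMIs in L and 527 to 2621 CPM in CS (median 1784), at least 104-fold higher. Fos had 0 UMIs in L and 598 to 1095 CPM in CS, at least 44.9-fold higher, and Ier2 0 UMIs and 219 to 1035 CPM, at least 35.3-fold higher. Jun had 0 to 383 CPM in L and 1369 to 2552 CPM in CS without overlap (log2 fold change 5.64, SE 0.506, adjusted p = 1.30e-25). Egr1 had 0 to 200 CPM in L and 632 to 2552 CPM in CS, again without overlap (log2 fold change 4.58, adjusted p = 1.04e-19). Once mice were paired by a block, 9 of the 12 passed the test and Junb, Nr4a1 and Dusp1 did not (blocked adjusted p of 0.0693, 0.126 and 0.487). With the pool as a term, 8 of 12 passed.

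The promoters of Atf3 and Fos, both at 0 UMIs in L, are shown as examples, with a motif added after the data were seen. Fosb, also at 0 UMIs in L and with a larger rise than Fos, and Jun had promoter entries too. Those are not shown, and whether they hold the motif is not reported, so the examples say nothing about these genes as a group. The promoters shown are the 250 bases before the RefSeq start (GRCm38.p6). In capitals is TGACGT or its reverse complement ACGTCA, the core of the element that ATF and CREB factors bind. It starts 8 bases before the RefSeq start in Atf3, on the reverse strand, and 66 bases before it in Fos, where a TATAAA follows at 33 bases. It was in 6.47% of 32851 promoters of that length on either strand, and a match is a description of the letters and not of binding. The matches in capitals overlapped no other motif searched, whereas 2 matches of GGGCGG in Atf3, 180 and 176 bases before the start, overlap each other:

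Atf3 promoter, chr1:191183334-191183583, minus strand: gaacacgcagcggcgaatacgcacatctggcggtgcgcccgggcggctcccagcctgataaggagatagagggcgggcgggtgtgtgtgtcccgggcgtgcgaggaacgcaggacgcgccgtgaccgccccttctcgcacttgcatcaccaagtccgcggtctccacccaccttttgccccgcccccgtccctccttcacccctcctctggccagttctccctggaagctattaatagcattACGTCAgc

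Fos promoter, chr12:85473640-85473889, plus strand: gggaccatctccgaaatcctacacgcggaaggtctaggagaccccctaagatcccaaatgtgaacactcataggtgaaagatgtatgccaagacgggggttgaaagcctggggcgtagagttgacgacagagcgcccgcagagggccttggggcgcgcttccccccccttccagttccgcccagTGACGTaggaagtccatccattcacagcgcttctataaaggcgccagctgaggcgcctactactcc

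Summed over the 22 early response genes, each L sample lay below each CS sample. The sum was 0 to 894 CPM in L (median 326) and 5371 to 16416 CPM in CS (median 12304). In the pools that held both types, pool 2 had 894 CPM in L against 11582 and 7287 in CS, pool 5 had 348 against 13027, and pool 6 had 0, 305 and 667 against 16416. At the level of nuclei, 0 of 63 in L, 36 of 38 in CS and 17 of 19 in PH reached 2000 CPM, a limit chosen after the values were seen. Hepatocytes of the same samples went from 246 to 428 CPM in L to 5057 to 8363 CPM in CS. Barcodes of at most 100 UMIs, which hold mostly free RNA, had 2493 CPM over the 6 pools. The part of free RNA in the rise was not tested.

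Keratins rose as well. Of 19 junction and keratin genes tested, 4 were higher in CS (Krt8, Krt18, Krt19, Krt23) and 0 lower, against 1.29% and 0.163% of all genes tested. Krt18, a keratin of simple epithelia, had 0 to 128 CPM in L and 211, 653, 1035, 1131, 1363 and 2299 CPM in CS, without overlap (log2 fold change 4.61, SE 0.530, adjusted p = 1.90e-15). Krt8, its partner, had 0 to 267 CPM in L (median 50.9) and 105 to 1752 CPM in CS (median 1101), where mouse 2 overlapped with L (log2 fold change 3.73, adjusted p = 6.83e-12). Krt19 rose by 3.29 on the log2 scale (adjusted p = 7.44e-04), although 2 of 6 CS samples had none. Under the block by mouse, Krt8 and Krt18 passed, and Krt19 (blocked adjusted p = 0.0889) and Krt23 (0.810) did not. Cdh1, Dsg2 and Prom1 did not pass the test. Reads of Krt8, Krt18 and Actb can also come from processed copies of these genes.

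Ankrd1 and Ccn1, known targets of YAP and TEAD factors, rose as well. Ccn2 and Amotl2, listed with them, were not among the genes called from L to CS. Ankrd1 had no UMI in 6 of 8 L samples, and the highest L sample (mouse 4) had 766 CPM. In CS it had 5363, 105, 3831, 0, 207 and 1740 CPM, so that both ranges overlapped (log2 fold change 5.21, SE 0.481, adjusted p = 3.31e-24). Ccn1 had 0 to 255 CPM in L and 527 to 1715 CPM in CS without overlap (5.31, adjusted p = 5.28e-17). Fgfr2, a growth factor receptor, was the third of 21 growth factor and signalling genes that passed, with 362 to 3194 CPM in L and 1173 to 6131 CPM in CS (1.10, adjusted p = 0.0456). Over all genes tested, 1.29% were called higher and 0.163% lower. Ankrd1 and Ccn1 passed with the mouse as a block and Fgfr2 did not (blocked adjusted p = 0.810). Ankrd1 and Ccn1 both had promoter entries, and only that of Ankrd1 is shown, so it says nothing about Ccn1. GGAATG, the TEAD motif, is in capitals. It starts 210 and 123 bases before the start and occurred in 12.6% of all promoters on either strand:

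Ankrd1 promoter, chr19:36119845-36120094, minus strand: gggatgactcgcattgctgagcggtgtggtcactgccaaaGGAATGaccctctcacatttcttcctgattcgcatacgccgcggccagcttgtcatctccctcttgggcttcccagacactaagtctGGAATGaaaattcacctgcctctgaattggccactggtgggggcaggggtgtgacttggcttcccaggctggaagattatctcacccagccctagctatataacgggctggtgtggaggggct

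**Figure D4:**
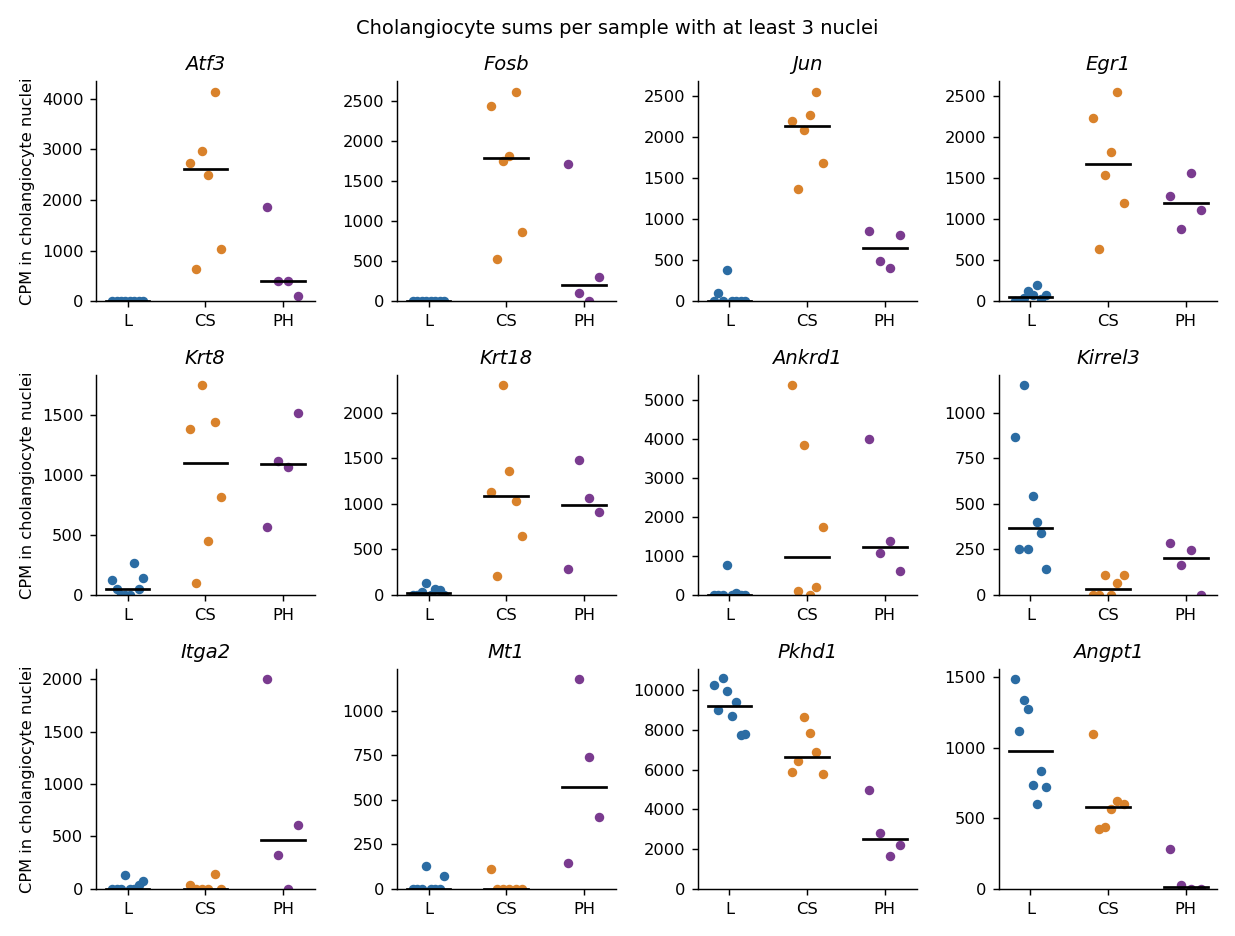
Levels (CPM) of 12 genes in cholangiocyte nuclei of each sample with at least 3 such nuclei, in L (8 samples), CS (6) and PH (4). Points are samples and lines are medians. Atf3, Jun and Krt18 are higher in CS than in every L sample, Itga2 and Mt1 have medians of 0 in L and in CS, and Pkhd1 and Angpt1 are lowest in PH.

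Other lists gave no calls from L to CS. Of 14 cilium and cyst, 13 transcription factor, 6 Notch, 13 transport and 15 basement membrane and integrin genes tested by edgeR, 0 were called. Over all genes tested, 1.29% were called higher and 0.163% lower and 414 had an unadjusted p under 0.05, so a count of 0 in these lists is near the background and is no result about their genes. Pkhd1 had 5764 to 8648 CPM in CS (log2 fold change -0.49, SE 0.290, adjusted p = 0.654) and Glis3 2719 to 4488 CPM (0.00, adjusted p = 1.00). Changes of these sizes could not be told from the spread between samples.

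Falls were harder to call than rises at these counts, so the small number of lower genes is no measure of how many fell. Kirrel3, a cell adhesion protein, was the most stable of the 5 with the largest falls, called in 16 of 17 other settings. It had 145 to 1149 CPM in L (median 370) and 0 to 109 CPM in CS (median 34.5), without overlap (log2 fold change -3.30, SE 0.629, adjusted p = 3.74e-05). St3gal5, a ganglioside-forming sialyltransferase, fell from 527 to 1158 CPM to 0 to 547 CPM (-1.73, adjusted p = 0.0132). Ces1d, a carboxylesterase that hepatocytes also express, fell by 2.83 on the log2 scale (adjusted p = 0.00365). Rab22a and Serpinc1 had 24 and 19 UMIs in L and 0 in CS (adjusted p of 0.0157 and 0.0468), and Serpinc1 is an abundant hepatocyte gene with 663 CPM in Group L hepatocytes. With the mouse as a block, Kirrel3 (blocked adjusted p = 0.0395) and Ces1d (0.0483) passed and St3gal5 (0.0618), Rab22a (0.416) and Serpinc1 (0.805) did not. Serpinc1 kept its call in 1 of 16 other settings and Rab22a in 8 of 17.

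RNA quality moved with the sample type. The unspliced share of UMIs in the cluster was 74.5% in L, 65.2% in CS and 58.4% in PH, and in hepatocytes 74.5% in L and 66.9% in CS. Of 13 mitochondrial genes tested, 9 were higher in CS, against 1.29% of all genes tested. The 13 genes together were 0.0863% to 0.805% of the UMIs in L samples (median 0.390%), 0.172% to 2.22% in CS (median 0.715%) and 0.629% to 2.41% in PH (median 1.37%). In hepatocytes the medians were 0.168% and 0.157% in L and CS. Gm42418, which overlaps ribosomal RNA, had 9193 to 37046 CPM in L and 23452 to 63245 CPM in CS (1.09, adjusted p = 0.00580). Neither Gm42418 (blocked adjusted p = 0.819) nor any of the 9 mitochondrial genes passed from L to CS with the mouse as a block, the lowest being mt-Co3 (0.227). From L to PH, 7 mitochondrial genes were higher, where 2.92% of all genes tested were. Of the 7, 5 passed with the block, mt-Co1 (blocked adjusted p = 9.26e-07), mt-Co3 (0.00416), mt-Atp6 (0.0167), mt-Co2 (0.0262) and mt-Nd2 (0.0358). The part of these differences in the gene changes was not tested. With unspliced counts alone, 36 genes were higher and 8 lower, and the 5 early response genes that could still be tested were called.

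The change from L to CS was also compared with that of hepatocyte nuclei of the same samples. edgeR tested whether both cell types differed in it. The log2 fold change of cholangiocytes minus that of hepatocytes was called above 0 for 1 of 4902 genes (0.0204%) and below 0 for 5 (0.102%), with 491 at an unadjusted p under 0.05. With RLE size factors, it was 3 genes each way. Of the 12 early response genes, 0 differed by this test, and a p that misses the threshold does not show that both cell types responded alike. Kcnip4, a potassium channel-interacting protein, rose in cholangiocytes from 0 to 124 CPM to 0 to 1655 CPM and had 10.5 to 22.3 CPM in hepatocytes of both types (difference of log2 fold changes 4.29, adjusted p = 0.00312). It had no UMI in 2 of 6 CS samples. Actb, beta-actin, rose from 50.8 to 255 CPM to 435 to 876 CPM in cholangiocytes and from 34.8 to 68.9 CPM to 500 to 702 CPM in hepatocytes, where it started lower (-1.92, adjusted p = 0.0261). The rise of Actb within cholangiocytes did not pass with the mouse as a block (blocked adjusted p = 0.126). Txnip, thioredoxin-interacting protein, was 13.9 to 44.9 CPM in hepatocytes of L and 169 to 255 CPM in those of CS, against 0 to 124 and 0 to 211 CPM in cholangiocytes (-3.52, adjusted p = 0.0352). Once mice were paired by a block, 12 genes differed, 5 of these 6 among them but not H3f3b (blocked adjusted p = 0.0657). Without mouse 6, and with only the nuclei of clearer hashtags, 0 differed (472 and 433 at an unadjusted p under 0.05).

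**Figure D5:**
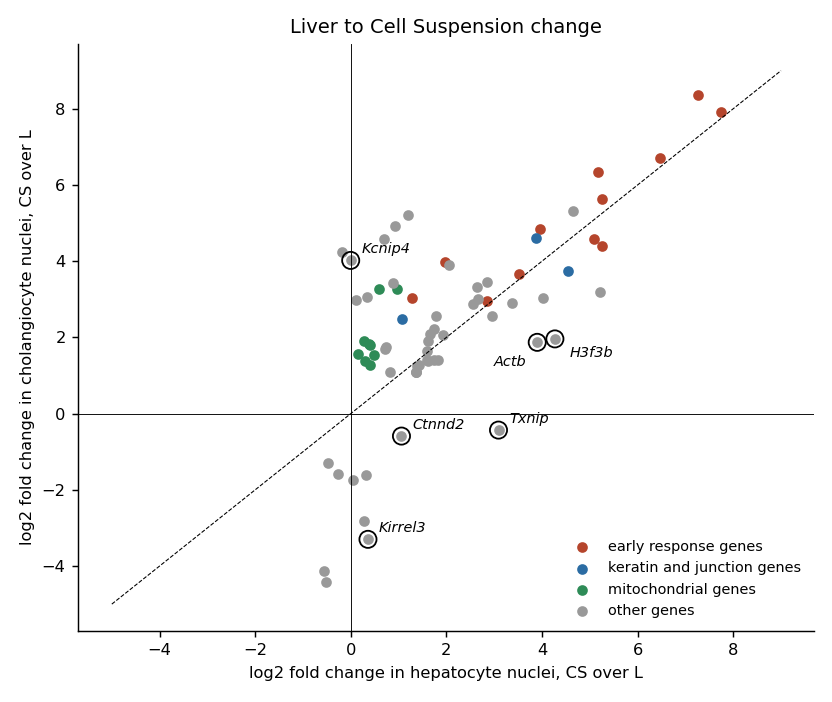
Log2 fold changes from L to CS in hepatocyte (x axis) and cholangiocyte (y axis) nuclei for 72 genes that were called in cholangiocytes or differed between both cell types. Circles mark the 6 genes whose change differed, and the dashed line is equality. Early response genes lie near the line, and mitochondrial genes lie above it, with interaction tests that they did not pass.

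After 24 hours of culture, the markers moved in both directions in the few nuclei of the cluster, which leave out the marker-bearing PH nuclei named cultured cells. Of the 5 markers, Pkhd1 fell, Krt19 rose (log2 fold change 3.27, SE 0.799, adjusted p = 0.00268, blocked adjusted p = 0.0286) and 3 did not pass the test, among them Epcam (1.84, adjusted p = 0.143). Krt19, with 4 UMIs in L, entered the test only through PH, so its call is partly fixed by the filter. The comparison of PH with L was added after the data were seen. It rests on 4 PH samples (mice 3, 5, 6 and 8) with 3 to 8 nuclei. Against L, edgeR called 144 of 4938 genes higher (2.92%) and 100 lower (2.03%). With RLE size factors, 239 were higher and 97 lower, and the median over all genes moved from -0.0857 to 0.101 on the log2 scale. Under the block by mouse, 42 were higher and 46 lower, and without mouse 5 or 8 the total was 110 or 123. Only pool 5 held both types with enough nuclei, so pool and culture cannot be told apart for most samples. The lower unspliced share and the higher mitochondrial RNA of PH moved with this comparison, and their part in it was not tested.

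Pkhd1 had 5000, 2816, 1641 and 2226 CPM in PH, below every L sample (7768 to 10638 CPM, log2 fold change -1.73, SE 0.367, adjusted p = 2.98e-04). Erbb4 had 1857, 1996, 574 and 304 CPM in PH against 3832 to 10898 CPM in L (-2.30, adjusted p = 1.28e-06). Angpt1 had 286, 27.3, 0 and 0 CPM against 601 to 1485 CPM (-4.16, adjusted p = 6.03e-07). For these genes and for Anxa13, PH samples did not overlap with L. Anxa13 was seen in 1 of 4 PH samples, at 109 CPM, against 387 to 1114 CPM in L (-3.46, adjusted p = 6.15e-05). Of 13 transcription factors tested, Prox1 (-3.24), Onecut1 (-2.54) and Grhl2 (-2.13) fell and 0 rose. Over all genes tested, 2.03% fell and 2.92% rose. Glis3 had 1286 to 3117 CPM in PH and 1533 to 4127 CPM in L (-0.28, adjusted p = 0.781), and Spp1 0 to 1214 against 559 to 1547 CPM (-0.65, adjusted p = 0.497). Of 20 growth factor and signalling genes, Erbb4, Fgfr3 (-2.14), Pdgfc (-1.93) and Ror1 (-2.03) fell, and Ccn1, Ccn2 and Ankrd1 rose. Of 15 cilium and cyst genes, Pkhd1 and Cys1 fell. Cys1 had no UMI in the 4 PH samples. With the mouse as a block, Pkhd1, Erbb4, Angpt1, Anxa13, Prox1, Onecut1, Ror1, Ccn1 and Ankrd1 passed. Grhl2 (blocked adjusted p = 0.311), Fgfr3 (0.0982), Pdgfc (0.186), Cys1 (0.450) and Ccn2 (0.0852) did not.

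Of 17 basement membrane and integrin genes, 4 rose, all of them integrin chains, and 0 fell, against 2.92% and 2.03% of all genes tested. Itga2, a subunit of the collagen receptor, had 0 to 128 CPM in L and 2000, 328, 0 and 607 CPM in PH (log2 fold change 4.24, SE 0.705, adjusted p = 6.92e-07). Itgb6 had 0 to 116 CPM in L and 1429, 273, 0 and 405 CPM in PH (3.11, adjusted p = 5.96e-04). Itga3 (2.63) and Itgav (2.14) rose too. In each of Itga2 and Itgb6 the sample of mouse 6 had no UMI. Krt18 had 286 to 1476 CPM in PH (4.62, adjusted p = 3.45e-12). Krt23, which was higher in CS, was lower in PH than in CS (-2.84, adjusted p = 0.0409, blocked adjusted p = 0.880). The tight junction gene Cldn4, with 0 UMIs in L, had 14 UMIs in PH and was at least 10.7-fold higher (adjusted p = 6.25e-04). Cldn4 and Krt18 (6 UMIs in L) entered the test only through PH, so their calls are partly fixed by the filter. Once mice were paired by a block, Itga2, Itga3 and Krt18 passed, and Itgb6 (blocked adjusted p = 0.125), Itgav (0.385) and Cldn4 (0.421) did not.

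Of 8 chaperone and stress genes, 6 rose and 0 fell, against 2.92% and 2.03% of all genes tested. Among them, Mt2 had 0 UMIs in L and was tested only through PH, so this count is partly fixed by the filter. Of the 6, only Mt1 passed with the mouse as a block. Those 6 included Hsp90aa1 (3.71, adjusted p = 4.83e-04) and Hspa5 (2.21, adjusted p = 0.0151). Mt1, a metallothionein, had 0 to 128 CPM in L, 0 to 109 CPM in CS and 143, 1176, 738 and 405 CPM in PH (5.25, adjusted p = 9.65e-11). Each PH sample was above each L sample, but the lowest PH and highest L levels lay close together at very low counts. The PH sample with 143 CPM, of mouse 3, held only 7000 UMIs in the cluster. Free RNA of the pools held 637 CPM of Mt1, and its part was not tested. Of 9 immune and reactive genes, Lcn2, Nfkbia, Relb and Il6ra rose. Il34 and Sprr1a lie outside the lists and were chosen after their values were seen. Il34, a cytokine of macrophage growth, had 0 UMIs in L and 857, 0, 1476 and 809 CPM in PH (adjusted p = 5.54e-11). Sprr1a, a small proline-rich protein, had 0 UMIs in L and in CS. In PH it had 0, 465, 246 and 911 CPM (adjusted p = 1.59e-08). With 0 UMIs in L, Il34, Sprr1a and Mt2 entered the test only through PH, so their calls are partly fixed by the filter. Because Il34 and Sprr1a were also chosen by these values, their p-values, blocked or not, are no independent evidence of a rise. Under the block by mouse, Mt1, Il34 and Sprr1a passed, and Hsp90aa1 (blocked adjusted p = 0.0839), Sqstm1 (0.0778), Hspa5 (0.217), Mt2 (0.274), Hspa8 (0.440) and the 4 immune genes (0.155 to 0.697, Lcn2 and Relb) did not.

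The summed early response RNA was 4538 to 8571 CPM in PH (median 5079), which overlapped with CS and lay above every L sample. The sums were not tested. Against L, 11 of the 22 genes were called higher (2.92% of all genes tested were), 9 others had too few UMIs to be tested, and 6 were called with the mouse as a block. Members with 0 UMIs in L entered this test only through PH, so the count is partly fixed by the filter. Against CS, with 4 PH and 6 CS samples, edgeR called 22 of 3408 genes higher in PH (0.646%) and 28 lower (0.822%), and 20 in all with the mouse as a block. Without mouse 5 or 6, 19 or 20 genes were called. The median log2 fold change was 0.0752 with TMM and 0.189 with RLE size factors. Atf3 (-2.02, adjusted p = 0.00624), Fosb (-2.21, adjusted p = 0.00522) and Jun (-1.80, adjusted p = 0.0228) were lower, 3 of the 15 early response genes tested, and 0 were higher. Atf3 had 1857, 410, 410 and 101 CPM in PH, and mouse 3 overlapped with CS. Itga2 (3.73), Itga3 (2.66), Itgb6 (3.28) and Mt1 (4.09) were higher in PH than in CS, and Erbb4 (-1.98) and Angpt1 (-3.61) lower. With the mouse as a block, Atf3, Fosb, Mt1, Erbb4 and Angpt1 passed, and Jun (blocked adjusted p = 0.0539), Itga2 (0.752), Itga3 (0.206) and Itgb6 (0.384) did not. Both comparisons of PH use the same 4 samples, so they are not independent of each other.

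RNA of other cell types was present in the cluster. Alb and Cps1, hepatocyte genes of the albumin protein and of the urea cycle, had a UMI in 85.8% and 62.2% of its nuclei, in 75.3% and 67.1% of the other biliary cluster and in 98.2% and 97.0% of Group L hepatocytes. The 12 hepatocyte markers summed to 3130 CPM in L, 3455 in CS and 3140 in PH nuclei, all 12 with a UMI in L. The sum was 1446 to 6643 CPM over L samples, against 15235 CPM in hepatocytes, 1982 CPM in the other biliary cluster and 12226 CPM in barcodes of at most 100 UMIs. Of 12 tested from L to CS, 0 passed, where 1.29% of all genes tested were higher and 0.163% lower. That count is near the background and is no result about these markers. Their part in other results was not tested. The 10 mesothelial markers summed to 239 CPM in L, 133 CPM in CS and 0 in PH, with Msln, Upk1b, Lrrn4 and Krt14 at 0 in all 3 types, and to 6719 CPM in the other biliary cluster. Of the 239 CPM, 227 CPM were Gpm6a, a neuronal membrane protein gene. Markers of further cell types were summed as well, for endothelial (102, 234 and 131 CPM in L, CS and PH), stellate and fibroblast (119, 173 and 105 CPM), Kupffer cell (108, 112 and 78.5 CPM) and leukocyte markers (28.4, 30.6 and 13.1 CPM). Of the Kupffer sum in L, Csf1r gave 96.6 CPM, while Vsig4, Timd4 and Marco were at 0. The Kupffer sum in PH rests on 6 UMIs, with a median of 13.7 CPM and a highest value of 571 CPM over samples.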

How the data were processed

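The data were single-nucleus RNA-seq libraries of 6 pools, each of 4 hashtag-labelled samples. Per the labels and the paper, the authors sequenced the pools, demultiplexed them with bcl2fastq 2.19.0 and quantified spliced, unspliced and ambiguous UMIs against GRCm38 with Salmon alevin. They then assigned nuclei to samples from hashtag counts, removed doublets and clustered with Seurat. The deposited counts are raw UMI counts per gene and barcode, with no normalization. The nucleus table gave the authors' sample type, hashtag, cell type and cluster. Hashtag CD2 has the type CS and was read as CS of mouse 2. Per-sample columns not used numbered 0.

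The cluster was the smaller cluster number (127 nuclei) within the biliary annotation. The members and the gene lists were chosen with earlier results of these data known. Counts of spliced, unspliced and ambiguous UMIs were summed per sample and cell group. Samples with fewer than 3 nuclei were left out (CS of mice 3 and 7, PH of mice 1, 2, 4 and 7). Genes with at least 10 UMIs were tested with edgeR 4.0.16 (quasi-likelihood test, TMM, R 4.3.3) and Benjamini-Hochberg adjustment over all genes tested, at a threshold of 0.05. The interaction with hepatocytes was fitted over both cell groups. The comparisons with PH, the pool term and the selection of nuclei whose hashtag was at least 1.25 times the next were added after seeing the data. Shares were compared by exact permutation tests (8 against 8, smallest p 1.55e-04) and paired measures by exact sign-flip permutation tests (smallest p 0.00781), 2-sided, with adjustment over 3 and 8 tests. Intervals are exact Clopper-Pearson 95% intervals, and they and the floor of 3 counts cover counting error only. DESeq2 1.42.0 served as an alternative. Permutations ran in scipy 1.17.1 (numpy 2.4.6, Python 3.11.15), tables in pandas 2.3.3 and plots in matplotlib 3.10.9. Each script was tested on simulated data.

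Named genes were the 15 with the largest pooled ratio over hepatocytes and the 10 with the largest ratio over the other cluster, among 615 genes with at least 50 UMIs in at least 6 Liver samples, the 5 largest rises and the 5 largest falls called from L to CS, and members of the lists. Kcnip4, Ctnnd2, Actb, Txnip, H3f3b, Il34, Sprr1a, Gm42418 and the mitochondrial genes were named after their values were seen. Some genes of the rules and lists are not reported here. Promoters were the 250 bases before the RefSeq start in GRCm38.p6. They were searched on both strands for the TEAD motif GGAATG and the ATF and CREB motif TGACGT, the last added after seeing the data. The TATA box TATAAA was in 12.4% of all promoters, the RBPJ motif TGGGAA in 21.6% and the Sp factor motif GGGCGG in 32.7%. Bicc1, Sox9 and Krt19 had no entry among them.

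The samples of 1 mouse come from the same liver, so the mouse number pairs them. Over 500 genes, deviations of L and CS samples of the same mouse correlated at -0.0178 to 0.0623 (median 0.00857, 6 pairs), against a median of 0.00306 for different mice.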

Additional observations from a re-analysis of the deposited data

Results flagged for a closer look

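Single samples stood apart from the rest of their group in 20 of the groups checked. The check was Dixon's ratio of gap to range, with limits that flag about 1 in 20 groups of normal values by chance. That rate does not hold for sparse counts, where a group with only 1 sample above 0 is always flagged. The number of flags is thus no measure of excess. The groups checked were 85 of named genes, besides the shares and the measures per nucleus. The cholangiocyte share of CS was highest in mouse 8 (0.572%). The other biliary cluster had 5123 UMIs per nucleus in Liver of mouse 3, apart from the other Liver samples.

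In Liver, mouse 4 stood above the other mice for Krt19 (128 CPM, next 51.0), Jun (383 CPM, next 102), Ankrd1 (766 CPM, next 66.7) and Ccn1 (255 CPM, next 17.0), in 4 nuclei. Mouse 5 was highest for Spp1 (1547 CPM, next 934) and mouse 3 for Erbb4 (10898 CPM, next 7173). In CS, mouse 4 was highest for Anxa13 (766 CPM, next 401), Cys1 (438 CPM, next 163) and Fos (1095 CPM, next 759). Mouse 1 was highest for Angpt1 (1095 CPM, next 621) and for Mt1 (109 CPM, others 0), mouse 2 for Epcam (421 CPM, next 109) and mouse 6 for Itga2 (138 CPM, next 36.5). In PH, mouse 3, with 3 nuclei, was highest for Angpt1 (286 CPM, next 27.3), Fos (857 CPM, next 202) and Ces1d (429 CPM, others 0) and lowest for Glis3 (1286 CPM, next 2833). Mouse 5 alone had Anxa13 (109 CPM).

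For 6 genes, the change from L to CS differed between cholangiocytes and hepatocytes by the interaction test of edgeR. As cholangiocyte minus hepatocyte log2 fold change, the differences were 4.29 for Kcnip4, -1.60 for Ctnnd2, -1.92 for Actb, -3.83 for Kirrel3, -3.52 for Txnip and -2.16 for H3f3b.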

How the results depend on the processing

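The cluster is small, so shares and counts of calls moved with single mice and settings, and the causes were not tested. Among nuclei other than hepatocytes and cultured cells, the share differed by 1.09 points for CS minus L (exact adjusted p = 0.0634), 11.1 for PH minus L and 10.0 for PH minus CS. Leaving out cultured cells affects mainly PH, so the last 2 do not compare like with like and carry no direction. With hashtags at least 2 times the next, PH minus L was -0.0298 and PH minus CS 0.00988 (exact adjusted p = 0.733 for both). This limit kept only 10 L, 1 CS and 3 PH nuclei of the cluster, too few to decide. With nuclei of at least 1000 UMIs, PH minus CS was -0.124 (exact adjusted p = 0.0534). Leaving out 1 mouse gave -0.110 to -0.0149 for CS minus L, -0.236 to -0.144 for PH minus L and -0.168 to -0.106 for PH minus CS.

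Against hepatocytes, the log2 ratio of UMIs was -1.45 with at least 5 nuclei (exact adjusted p = 0.125) and -1.65 to -1.44 without 1 mouse. The hashtag share differed by -18.9 points with no replicate block (exact adjusted p = 0.0553), by -18.6 with at least 5 nuclei (exact adjusted p = 0.125) and by -19.6 to -18.2 without 1 mouse. For both, 7 or fewer mice gave the smallest p the test allows, which adjusted to 0.0625 (0.0417 without mouse 6) or, with at least 5 nuclei, to 0.125, so these p-values say nothing about stability. Measures that had passed no test changed sign. Against hepatocytes, the unspliced share differed by 0.0781 points with at least 5 nuclei, 1.67 as a median over nuclei, 0.208 without mouse 4, 0.283 without mouse 5 and down to -0.968 without mouse 2. Genes detected differed by -0.250 at 500 UMIs, -1.07 without mouse 5, -0.786 without mouse 6 and up to 4.71 without mouse 4. Against the other biliary cluster, the unspliced share differed by 0.310 as a median over nuclei, and genes detected by 2.20 at 2000 UMIs and by -9.00 (without mouse 6, exact adjusted p = 0.0417) to -3.50 without 1 mouse. The log2 ratio of UMIs to that cluster was 0.0253, 0.00571 and 0.0276 without mouse 1, 3 or 8, and -0.0742 without mouse 6.

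From L to CS, edgeR called 71 genes, 12 with filterByExpr (155 genes tested), 23 with the mouse as a block, 44 with unspliced counts, 41 with DESeq2 and 18 with the pool as a term, and 51 to 75 without 1 mouse. The interaction called 6 genes, 12 with the mouse as a block, 10 with samples of at least 1 nucleus, 14 with DESeq2, 0 with clearer hashtags and 0 to 9 without 1 mouse (0 without mouse 6, 3 without mouse 3 or 5). From L to PH, 244 genes became 134 with DESeq2 (58 higher), 408 with samples of at least 1 nucleus (114 higher), 110 with unspliced counts, 88 with the mouse as a block and 110 to 276 without 1 mouse. Between CS and PH, 50 became 20 with the mouse as a block and 19 to 59 without 1 mouse, and DESeq2 called 7 higher and 36 lower.

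Of the alternatives for the 19 genes named by ratio, 185 of 187 moved by less than the spread between samples. The 5 largest rises from L to CS kept direction and call in 84 of 84 alternatives, and the 5 largest falls in 48 of 84. Alternatives in which a gene could not be tested are left out of these counts. The genes were picked by this same comparison, so the counts are no independent support. Atf3, Fosb, Fos and Ier2 had no UMI in L, so the direction of their rises was fixed in advance.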
